A study of Mus musculus with 43 samples.

Results

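The cells described here are organoid cells with a very high share of Fabp1 transcripts, and they carried the genes of absorptive enterocytes. They were chosen by 1 rule, at least 150 Fabp1 UMIs per 10000 UMIs of the cell (a UMI is a molecular tag that marks 1 captured RNA molecule). The rule took 2807 of 12323 cells kept in 4 single-cell RNA-seq libraries (22.8%), and the remaining 9516 are called the other cells. All 4 libraries held primary intestinal organoids of C57BL/6 mice of WT genotype, irradiated with 4 Gy on day 4 and collected on day 8. The 0 h library had received vehicle for 24 h before collection, and the others 1 ng/mL TGFB1 for 6, 15 or 24 h. The design asks how the organoid cells change with time in TGFB1, a secreted growth factor. Each time point was 1 library, so differences between times and between the 2 classes of cells are given as values with counting error and no test. A second data set of the same study, bulk RNA-seq of irradiated organoids at day 7 with 3 libraries of vehicle and 3 of 2 ng/mL TGFB1 (24 h from day 6), allowed a test of the same genes in whole organoids. Each organoid is epithelium grown in culture, and the labels name no sort for these cells.

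Absorptive enterocytes are the commonest cells of the small intestinal lining. They arise from dividing crypt cells and move up the villus, where their microvilli digest sugars and peptides at the surface, take up nutrients and pack dietary fat into lipoproteins. Fabp1 is the liver-type fatty acid binding protein, an abundant carrier of fatty acids in the cytosol of enterocytes and hepatocytes. Its gene, like many enterocyte genes, is known to be bound by HNF4 and CDX family transcription factors.

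The 250 bases upstream of the annotated start are shown for 4 genes, since they hold short motifs of those families. Fabp1 chose the cells, and the rest differed in level between the Fabp1-high and the other cells. The sequences are from RefSeq on GRCm38.p6, written 5′ to 3′ on the strand of the gene, with motif matches in capitals. Fabp1 lies on chr6:71199629-71199878 (plus strand), Sis (sucrase-isomaltase) on chr3:72967864-72968113 (minus), Rbp2 (the enterocyte retinol carrier) on chr9:98490287-98490536 (plus) and Treh (trehalase) on chr9:44672983-44673232 (plus).
Fabp1: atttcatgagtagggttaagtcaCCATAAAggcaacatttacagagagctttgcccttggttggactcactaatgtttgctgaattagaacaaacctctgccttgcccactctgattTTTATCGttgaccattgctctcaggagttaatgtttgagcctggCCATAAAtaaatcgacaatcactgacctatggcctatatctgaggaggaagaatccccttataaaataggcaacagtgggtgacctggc
Sis: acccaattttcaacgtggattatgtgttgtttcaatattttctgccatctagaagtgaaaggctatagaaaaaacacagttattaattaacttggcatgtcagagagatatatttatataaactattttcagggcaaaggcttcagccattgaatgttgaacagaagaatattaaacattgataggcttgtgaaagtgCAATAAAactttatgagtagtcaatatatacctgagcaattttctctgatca
Rbp2: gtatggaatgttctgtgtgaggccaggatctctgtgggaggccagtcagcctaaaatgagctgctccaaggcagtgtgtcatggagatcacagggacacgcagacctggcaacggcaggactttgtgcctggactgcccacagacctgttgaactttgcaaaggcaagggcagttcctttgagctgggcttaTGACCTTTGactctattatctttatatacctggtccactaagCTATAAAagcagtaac
Treh: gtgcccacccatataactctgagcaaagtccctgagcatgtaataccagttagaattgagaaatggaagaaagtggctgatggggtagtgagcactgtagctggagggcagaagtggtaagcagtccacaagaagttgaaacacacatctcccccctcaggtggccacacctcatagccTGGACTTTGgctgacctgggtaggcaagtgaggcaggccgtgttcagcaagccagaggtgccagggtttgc

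The motifs searched on both strands were CAAAGTCCA or CAAAGGTCA (an HNF4 direct repeat) and TTTATNG (a CDX site). The motifs in capitals do not overlap in these 4 promoters. Fabp1 had 3 TTTATNG matches, at 227 to 221, 133 to 127 and 89 to 83 bases upstream of the start, and Sis 1 at 52 to 46 bases. Rbp2 had an HNF4 repeat 58 to 50 bases upstream and Treh 1 at 71 to 63 bases, both on the opposite strand. Rbp2 also had a TTTATNG match at 16 to 10 bases. Over 27025 promoters of this length, 0.788% held the HNF4 repeat and 10.2% TTTATNG, and over the 2581 promoters of genes tested between the classes 1.05% and 6.51%. Among the genes later found at least 2-fold higher in the Fabp1-high cells of all 4 libraries, a promoter was found for 218, of which 12 (5.5%) held the HNF4 repeat and 29 (13.3%) TTTATNG. Of the 256 promoters of genes at least 2-fold lower, 1 (0.391%) held the HNF4 repeat and 22 (8.59%) TTTATNG. A match is a description of these letters and not evidence of binding.

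The libraries did not stand equal. The 0, 6, 15 and 24 h libraries kept 2932, 4283, 2890 and 2218 cells after 5 to 25 barcodes per library were removed for over 20% mitochondrial UMIs. The 24 h library had the highest median depth (10441 UMIs per cell, against 6709 to 8201.5 in the other 3) and the largest share of UMIs split between genes (11.8% against 8.06 to 8.82%). Of all barcodes, 1 was shared between libraries (15 and 24 h). Scrublet called 2 to 7 of the Fabp1-high cells per library doublets, and all were kept.

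Fabp1-high cells were 731 of 2932 at 0 h (24.9%, 95% exact binomial interval 23.4 to 26.5), 1184 of 4283 at 6 h (27.6%, 26.3 to 29.0), 656 of 2890 at 15 h (22.7%, 21.2 to 24.3) and 236 of 2218 at 24 h (10.6%, 9.39 to 12.0). The share thus lay between 22.7 and 27.6% in the first 3 libraries, with the 6 and 15 h intervals apart, and was lowest at 24 h. These intervals cover counting error only, and a change with time cannot be told apart from a difference between single libraries. The threshold lay within a continuous range: 39, 72, 43 and 18 cells had 140 to 150 Fabp1 UMIs per 10000, and 36, 65, 47 and 25 had 150 to 160. The members are therefore the upper part of a range of Fabp1 level, cut where there was no gap. Whether they belong to a separate type was not tested.

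Depth moved with this share. At 24 h the median Fabp1-high cell had 18980 UMIs and the median other cell 9190.5, whereas at 0 h the medians were 8346 and 8148. Among cells of at least 10000 UMIs the share was 23.0, 16.2, 27.9 and 19.1% at 0, 6, 15 and 24 h, and among shallower cells 26.0, 30.5, 20.1 and 1.59%. Of the 1072 shallower cells at 24 h, only 17 were Fabp1-high. The low share at 24 h therefore lay mostly in the shallower cells, and among the deeper cells the 6 h library had the lowest share. The part of depth in this was not tested. With each cell thinned to 2000 UMIs the share was 25.2, 27.7, 23.3 and 11.0%. The rule is a proportion, which random thinning keeps on average, so these shares cannot answer the question of depth.

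The level of Fabp1 chose the members and is given as a description. Their median was 235, 259, 246 and 213 Fabp1 UMIs per 10000 at 0, 6, 15 and 24 h, with 10% of the cells below 160 to 171 and the highest cell at 569 to 801. The other cells had medians of 6.08, 5.63, 6.51 and 10.3. Cells with at least 10 UMIs of the goblet genes Tff3 and Agr2 had medians of 2.78, 3.42, 3.63 and 6.86, given as a background level, since free RNA can add UMIs to any cell. The members held 73.4, 79.0, 76.8 and 60.8% of all Fabp1 UMIs of their library.

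**Figure D1:**
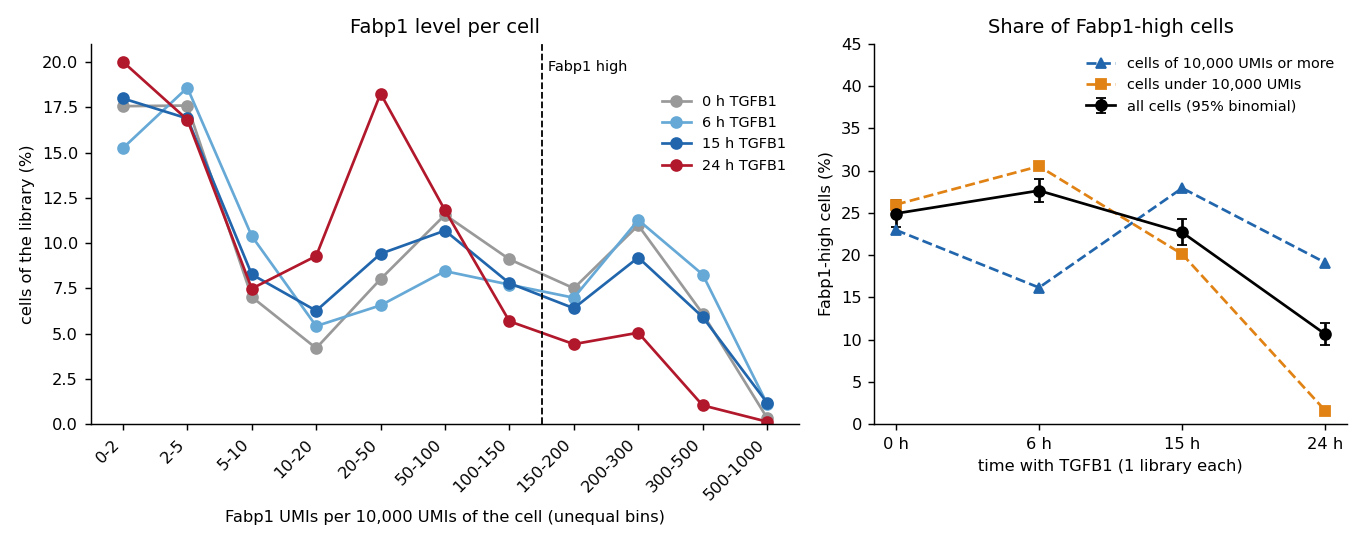
Left, percent of the cells of each library (y axis) by Fabp1 UMIs per 10000 UMIs (x axis), with the threshold of 150 as a dashed line. Right, percent of cells that were Fabp1-high at each hour of TGFB1, in all cells (with 95% exact binomial intervals) and in cells of at least and under 10000 UMIs; the 24 h value is 10.6% in all cells, 19.1% in the deeper and 1.59% in the shallower cells.

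What the Fabp1-high cells shared beyond Fabp1 was read from the sum of their UMIs, as CPM with Fabp1 left out of the totals. A gene was called when it was at least 2-fold higher, or lower, than in the other cells of the same library in all 4 libraries. Of 3174 genes of at least 50 CPM in a class, 260 were higher (8.19%) and 309 lower (9.74%). With each pair of sums rescaled by the median ratio of its genes, which adds 0.29 to 0.37 to each log2 difference, 479 were higher and 154 lower, so the share of higher calls went from 45.7 to 75.7%. This contrast was made by the rule itself and has no test.

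Enterocyte markers were high in these cells. Of 14 enterocyte markers, 11 were at least 2-fold higher in all 4 libraries and none lower, with a median log2 difference of 1.97, 2.26, 1.92 and 1.58 at 0, 6, 15 and 24 h (all genes tested, −0.04 to −0.07). The 3 that were not were Alpi (intestinal alkaline phosphatase), Anpep (aminopeptidase N) and Krt20 (a keratin of differentiated cells). Krt20 was 317, 703, 723 and 660 CPM in Fabp1-high cells against 114, 340, 374 and 403 in the others. Markers of immune, mesenchymal, endothelial and tuft cells were at or near 0: their sums over 5 to 10 genes were 3.1 to 4.5, 1.4 to 3.7, 0.5 to 0.6 and 0.5 to 3.6 CPM in the Fabp1-high cells. Goblet markers summed to 130 to 175 CPM in them and 379 to 555 in the others, and Paneth markers to 365 to 532 against 574 to 1164.

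Of the lists, fat absorption and lipoproteins had the most genes called, 15 of 18 tested higher and none lower. Fabp2, the intestinal fatty acid binding protein, was 4615, 5306, 4658 and 4025 CPM at 0, 6, 15 and 24 h in Fabp1-high cells against 1084, 966, 826 and 769 in the others. Apob, the structural protein of chylomicrons, was 772, 1076, 1787 and 1472 against 271, 348, 670 and 664. Mttp, which loads lipid onto it, was 1413, 1503, 1592 and 1622 against 482, 390, 495 and 599. The 4 sums of the members lay above the 4 sums of the other cells for each of these genes, though single cells overlapped: at 0 h 10% of the members had under 22.4 Fabp2 UMIs per 10000 and 10% of the other cells over 30.5. All 5 tested genes of retinoid handling (Rbp2, Bco1, Rdh7, Adh1 and Aldh1a1) were higher. Rbp2 was 1989, 2957, 3912 and 3173 CPM against 479, 671, 1104 and 1036, and Bco1, which cleaves beta-carotene, 218, 260, 219 and 186 against 44.2, 44.6, 39.2 and 53.9.

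Digestion and uptake followed. Of 12 tested brush border enzymes 8 were higher, and of 14 tested nutrient transporters 11, with none lower. Sis, which splits sucrose and starch fragments, was 6614, 5214, 3994 and 4245 CPM against 1437, 809, 741 and 1118. Slc5a1, the sodium-glucose cotransporter, was 2302, 2357, 1590 and 1401 against 577, 410, 368 and 465, and Slc2a2, the basolateral glucose transporter, 330, 317, 212 and 195 against 62.1, 47.5, 38.2 and 51. Structural genes of the microvillus differed less, with 2 of 13 called (Myo1a and Pls1) and a median log2 difference of 0.53 to 1.05. Ezr, which links the microvillar membrane to actin, was 271, 314, 305 and 299 CPM against 242, 267, 327 and 341, which is the same order of level in both classes.

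Metabolism and defence genes were among the widest differences. The 10 genes with the highest fold in the library where their fold was smallest were G6pc, Slc5a4b, Reg3a, Leap2, Fbp1, Reg3b, Rdh7, Aldh1a1, Cyp3a25 and Cyp2b10. G6pc, the last step of glucose release, was 88.1, 103, 106 and 90.5 CPM against 8.76, 8.77, 12.4 and 10.6, a fold of 8.54 to 11.8. Fbp1, of gluconeogenesis, was 207, 119, 91 and 94.8 CPM against 31.1, 17.2, 15.5 and 14.4. Leap2, an antimicrobial peptide that also acts on the ghrelin receptor, was 1002, 848, 512 and 424 CPM against 157, 90, 61 and 70.6. Of 16 tested detoxification genes 13 were higher and 1 was lower, Gpx2, a glutathione peroxidase of the crypt, with 63.8 to 89.2 CPM against 533 to 778. Of 10 tested genes of fatty acid oxidation 2 were higher (Ehhadh and Hsd17b4).

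The transcription factors that run enterocyte genes did not divide the classes in the same way. Of 13 tested, 1 was called, Creb3l3, an endoplasmic reticulum factor of lipid metabolism, with 420, 624, 623 and 632 CPM against 115, 181, 236 and 266. Hnf4a was 239, 342, 331 and 287 CPM against 350, 425, 349 and 274, and Cdx2 114, 123, 116 and 107 against 123, 120, 112 and 106. The levels of these 2 factors in the other cells were thus close to those in the Fabp1-high cells.

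Stem cell and mitosis genes were lower in the Fabp1-high cells. Of 12 stem cell genes 8 were tested, and all 8 were called lower, with a median log2 difference of −3.48 to −3.61. Olfm4, a crypt base marker, was 124, 145, 125 and 71.6 CPM against 2549, 2873, 2923 and 1919. Lgr5, the stem cell receptor of R-spondins, was under 50 CPM and so not tested, with 1.36 to 2.95 CPM against 31 to 46.3. Top2a and Mki67, both of dividing cells, were 20.4 to 31.4-fold and 17.0 to 22.4-fold lower.

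**Figure D2:**
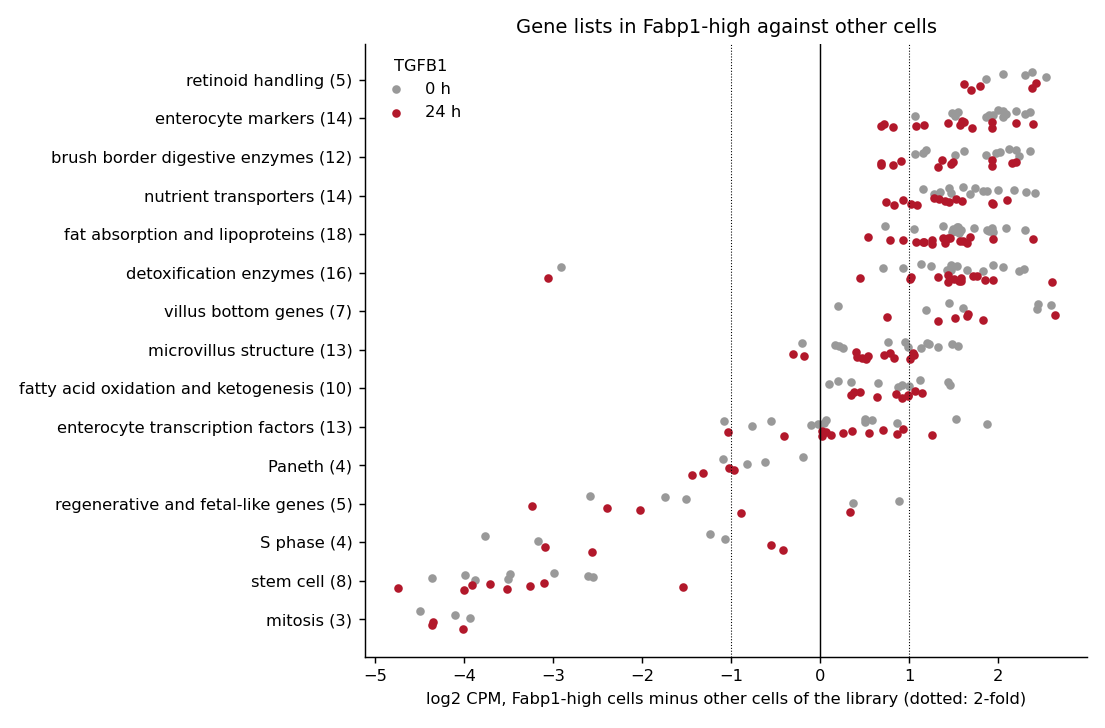
Each point is 1 gene of a list, placed by log2 CPM in Fabp1-high minus other cells (x axis) at 0 h (grey) and 24 h (red); dotted lines mark 2-fold. Enterocyte, fat absorption, retinoid and detoxification genes lie to the right and stem cell and mitosis genes to the left, and most transcription factors lie near 0.

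Across the range of Fabp1, Sis and Reg1 had no step at the threshold at 0 h. At 0 h Sis was 457 CPM in cells under 50 Fabp1 UMIs per 10000, 3895 at 50 to 100, 5198 at 100 to 150, and then 5792, 6814 and 7218 at 150 to 200, 200 to 300 and over 300. Reg1, a secreted lectin of the regenerating islet family, was 698, 6768, 12797, 16563, 17646 and 16508 in the same bins. Olfm4 was 3315 in the lowest bin and 84.1 to 241 in the other 5. The other cells therefore included cells just under the threshold with enterocyte levels close to those of the members, 267, 330, 225 and 126 of them at 100 to 150 in the 4 libraries. S100a6, a calcium-binding protein, ran the other way and was 2434 CPM in the lowest bin at 24 h, 913 and 435 in the next and 204 to 227 in the 3 bins of members. Not every gene was smooth at the threshold. Ada, of the villus tip list, was 22.4 CPM at 100 to 150 and 3.70 at 150 to 200 at 0 h, and 135 and 23.9 in these bins at 6 h. It was 22.8 and 73.9 CPM in them at 15 h, and 14.7 and 11.3 at 24 h.

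Members also varied among themselves. At 0 h Reg1 had a median of 138 UMIs per 10000 in single Fabp1-high cells, with 10% of cells below 6.84 and 10% above 352. Reg3b, an antibacterial lectin of the same family, had a median of 3.51, with 10% of cells above 42.5. Sis and Fabp2 were narrower, with 80% of cells between 35.0 and 94.3 and between 22.4 and 69.3. The Reg genes thus spanned a wider range from cell to cell than Sis and Fabp2. Lct was sparse, with a median of 0 and 10% of members above 2.81.

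The next comparison was that of time in TGFB1 within the Fabp1-high cells. Against 0 h, of 2961 genes tested at 6 h 24 were at least 2-fold higher (0.811%) and 5 lower (0.169%). At 15 h 45 of 2988 were higher (1.51%) and 18 lower (0.602%), and at 24 h 52 of 2992 were higher (1.74%) and 33 lower (1.1%). In the other cells 37 of 3391 were higher (1.09%) and 15 lower (0.442%) at 6 h, and 111 of 3489 higher (3.18%) and 38 lower (1.09%) at 15 h. At 24 h the other cells had 203 of 3607 genes higher (5.63%) and 67 lower (1.86%). Mitochondrial UMIs were a median 2.75, 3.38, 5.59 and 5.06% of the members' UMIs at 0, 6, 15 and 24 h, and genes of the dissociation stress list summed to 1749, 1620, 2327 and 2702 CPM in them. The members also differed in depth, with medians of 8346, 6525.5, 9034 and 18980 UMIs at the 4 times. Members of at least 10000 UMIs were 32.3, 11.7, 40.5 and 92.8%. The part of mitochondrial share, stress genes and depth in the differences over time was not tested.

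Genes of the TGFB pathway itself were few at these levels, since 5 of the list were tested at 24 h and 2 were at least 2-fold higher (Skil and Pmepa1). Both were under the minimum CPM at 0 h and so were tested only because they rose. Pmepa1, a membrane protein that restrains TGFB signalling, was 5.83, 33.8, 35.2 and 53.6 CPM in Fabp1-high cells and 18.8, 205, 295 and 387 in the others. Skil, a nuclear repressor of SMADs, was 34.8, 70.1, 78.7 and 86.8 CPM, and Smad7, the inhibitory SMAD, 21.9, 33.5, 40.4 and 43.5. All 3 feedback genes were thus higher at each time in TGFB1 than at 0 h in the Fabp1-high cells. The receptors were lower in the members than in the others, with Tgfbr2 at 16.6 to 19.2 CPM against 44.5 to 56.6 and Tgfbr1 at 10.1 to 13.4 against 22.2 to 25.6.

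Of 14 enterocyte markers 2, 3 and 3 were at least 2-fold higher in the members at 6, 15 and 24 h and none lower, and at 24 h these were Apoa1, Lct and Krt20. The median log2 change of the markers at 24 h was −0.10 in the members. In the other cells 5 of 14 were at least 2-fold higher at 24 h and none lower, with a median of 0.32. Apoa1, the main protein of high-density lipoprotein, was 1874, 4422, 5155 and 4471 CPM at 0, 6, 15 and 24 h, and 487, 961, 1644 and 2122 in the other cells. Counting error was small beside this, with 95% Poisson intervals in the members of 1840 to 1908 CPM at 0 h and 4411 to 4532 at 24 h. Apoa4, its chylomicron relative, was 1950, 3129, 3318 and 3189 CPM in the members. Of 18 tested genes of fat absorption 2 were at least 2-fold higher at 24 h (Apoa1 and Scarb1, a lipoprotein receptor) and none lower, with a median log2 change of 0.25 (all genes, 0.02). In the other cells 5 of 17 tested were higher at 24 h and none lower, with a median of 0.54 (all genes, −0.02). In single Fabp1-high cells the median of Apoa1 went from 12.2 to 41.1 UMIs per 10000 and the level that 10% of cells fell below from 1.41 to 11.9, so the higher level was not limited to a few members.

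Among digestive enzymes, Lct (lactase) stood apart with 81.7, 150, 194 and 284 CPM, a fold of 3.48 at 24 h. It was the only 1 of 12 tested that was at least 2-fold changed, and the median log2 change of the enzymes was −0.41. Sis was 6614 CPM at 0 h and 4245 at 24 h, and its single-cell median 65.1 and 41.0 UMIs per 10000. Krt20 was 2.08-fold higher at 24 h. Transporters showed no call at 24 h (0 of 14 each way), with a median of −0.07.

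Defence lectins of the villus bottom list divided. Reg3b was 1478, 3130, 8658 and 8488 CPM at the 4 times, a fold of 5.74 at 24 h, and Reg3g, its close relative, 473, 486, 816 and 1254. Reg1 was 17027, 15710, 10936 and 7455 CPM, 2.28-fold lower at 24 h. Lypd8, a surface protein that holds flagellated bacteria off the epithelium, was 1709, 2680, 3518 and 4136 CPM. In single members Reg3b went from a median of 3.51 to 60.6 UMIs per 10000, while Reg1 went from 138 to 28.4 with 10% of cells still above 231 at 24 h. In the other cells Reg3b was 272, 390, 1147 and 1370 CPM, higher at each later time, while Reg1 differed little in them (2830 and 2383 CPM at 0 and 24 h).

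Detoxification genes were the list with most calls downward, 5 of 18 lower at 24 h (Ces1d, Gstm1, Gstm3, Cyp3a11 and Ugt1a1) and none higher, with a median of −0.46. In the other cells 3 of 15 tested were lower and 1 higher at 24 h, with a median of −0.17. Ces1d, a carboxylesterase, was 103, 115, 42.3 and 11.6 CPM, and 21.7, 16.1, 7.28 and 3.34 in the other cells, with intervals in the members of 95.7 to 112 CPM at 0 h and 8.7 to 15.1 at 24 h. Gstm1, a glutathione transferase, was 1577, 1522, 752 and 554 CPM, and Ephx1, an epoxide hydrolase, 257, 195, 99.3 and 71. Ces1d and Gstm1 were near their 0 h level at 6 h and lower at 15 and 24 h. Akr1c14, a steroid dehydrogenase, was already lower at 6 h (144, 53.4, 27.7 and 42.4 CPM). More than 50% of the UMIs of Ugt1a1 were split with its gene cluster, so its value is uncertain.

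Other genes among the largest folds at 24 h were of mixed function. Fcgrt, the neonatal Fc receptor, was 18.1, 69.1, 125 and 171 CPM, a fold of 9.44 (intervals 15 to 21.8 CPM at 0 h and 159 to 183 at 24 h), and 9.56, 71.7, 126 and 139 in the other cells. Ctrb1, a pancreatic protease, was 209, 276, 753 and 1906 CPM against 41, 129, 480 and 761, so it was higher in both classes with time. Slc34a2, a phosphate cotransporter, was 7.73, 34.5, 83.2 and 52.7 CPM, and Acat1, of ketone and branched-chain amino acid metabolism, 50, 121, 299 and 342.

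Genes of the regenerative and fetal-like list summed to 985, 992, 1390 and 1671 CPM in the Fabp1-high cells and to 1146, 1645, 4008 and 6425 CPM in the others. The sums were close at 0 h, but the median log2 difference of the list's 5 tested genes was already −1.50 there and −2.03 at 24 h. S100a6 was 37.5, 67.6, 153 and 220 CPM in members and 225, 411, 1220 and 2066 in the others, and Clu (clusterin) 2.52, 7.44, 26 and 48.5 against 16.8, 88.9, 421 and 910. Of the 23 genes of the list, 5 were tested in the members at 24 h and 12 in the others. At least 2-fold higher were 3 in the members (S100a6, Krt7 and Cldn4) and 11 in the others. A gene was tested if it reached 50 CPM at 0 or 24 h, so a gene low at 0 h entered only by rising. The counts are therefore partly set by this filter and were not compared between the classes. S100a6 and Clu were higher at each later time in both classes, and lower in the members than in the others at every time. The part of free RNA from the other cells in the members' values was not tested.

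**Figure D3:**
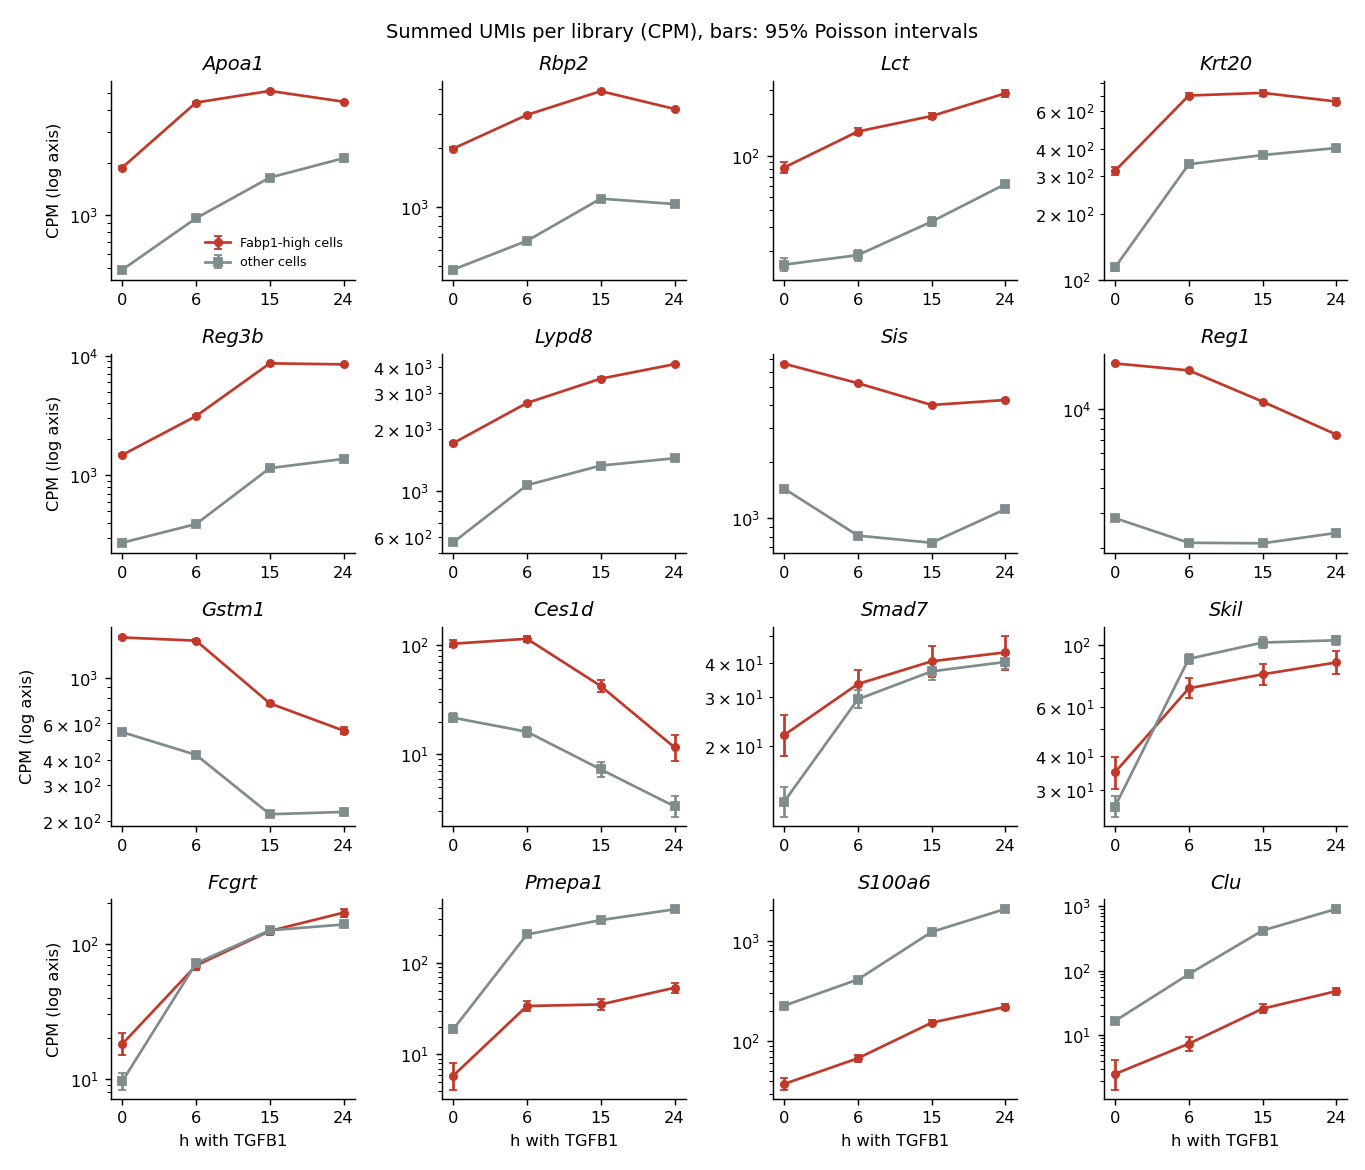
CPM without Fabp1 (y axis, log scale) at 0, 6, 15 and 24 h of TGFB1 (x axis) for 16 genes in Fabp1-high (red) and other cells (grey), 1 library per time, with bars of 95% Poisson counting error. Apoa1, Lct, Krt20 and Reg3b are higher after 0 h in the red series, Sis, Reg1, Gstm1 and Ces1d are lower at 24 h, and Clu and S100a6 stay lower in red than in grey.

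For a few genes the change from 0 to 24 h differed in size or direction between the 2 classes. Cldn2, a pore-forming claudin, was 20.5, 24.8, 41.7 and 63 CPM in the Fabp1-high cells and 133, 125, 119 and 140 in the others. Dmbt1, a mucosal scavenger protein, was 90.4, 258, 231 and 184 CPM in members and 553, 841, 684 and 414 in the others, so it was highest at 6 h in both and differed in direction only between 0 and 24 h. Pdlim7, a cytoskeletal adaptor, was 18, 12.4, 7.63 and 12.9 CPM against 6.64, 19.2, 33.8 and 53.4. Cldn2 and Pdlim7 are among the genes that the naming rule took for the largest difference between the classes, and Dmbt1 is given for its direction. With 1 library per time these differences were not tested.

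**Figure D4:**
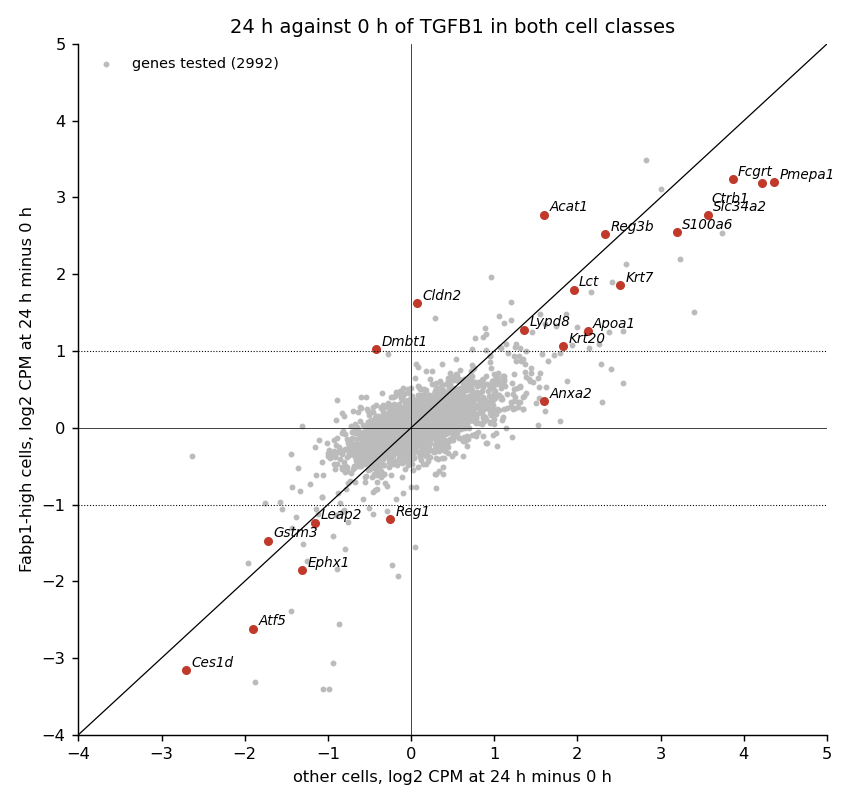
Log2 change from 0 to 24 h of each of 2992 genes in other cells (x axis) and Fabp1-high cells (y axis), with the line of equal change; both axes share the same 2 libraries. Fcgrt, Pmepa1, Ctrb1 and Reg3b lie high in both classes, Ces1d low in both, and Cldn2 and Dmbt1 above the line.

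The same genes were then read in the bulk libraries of irradiated day 7 organoids, where TGFB1 could be tested against vehicle. The test was limma's, on log2(FPKM + 1), 3 libraries against 3, two-sided, with Benjamini-Hochberg adjustment over 11258 genes, of which 4031 rose (35.8%) and 4464 fell (39.7%). Fold changes on this scale understate the change of low genes. The labels do not say that the 3 libraries came from separate cultures, so the p-values measure the spread between these libraries. In bulk, fewer cells of a type and less RNA per cell cannot be told apart. The dose was 2 ng/mL on day 6 and not 1 ng/mL before day 8, so values are set side by side and no comparison of size is made.

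Fabp1 itself did not pass the test. It was 3614, 3677 and 3903 FPKM with vehicle and 4059, 3815 and 4086 FPKM with TGFB1 (log2 change 0.10, SE 0.044, limma adjusted p 0.0687), and 1 TGFB1 library lay below the highest vehicle library. With quantile normalisation the direction turned (log2 change −0.53, limma adjusted p 6.81e-07), while a replicate block (limma adjusted p 0.0438), median-ratio scaling (0.0190) and leaving out vehicle replicate 3 (0.0341) or TGFB1 replicate 2 (0.0308) each gave a call of higher. Fabp2 fell, from 529, 584 and 579 FPKM with vehicle to 487, 482 and 473 FPKM with TGFB1 (log2 change −0.23, SE 0.043, limma adjusted p 0.000637). The 14 enterocyte markers were split, with 6 higher, 6 lower and a median log2 change of 0.05 (all genes, −0.03). The 260 genes higher in the Fabp1-high cells were split too, as 73 of 241 tested rose and 122 fell, with a median of −0.11. Of the 309 genes lower in these cells, 289 were tested, and 47 rose and 220 fell, with a median of −0.49. Among all genes compared between the classes, 2982 were tested in bulk, and 1072 rose and 1325 fell, with a median of −0.05.

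Of 19 tested genes of fat absorption and lipoproteins 9 rose and 6 fell, with a median of 0.09. Apoc3 and Mttp did not pass the test (log2 changes 0.09 and 0.01, limma adjusted p 0.315 and 0.75), and both changes turned negative with quantile normalisation. Apoa1 was 2158, 2253 and 2438 FPKM with vehicle and 6653, 6277 and 6516 FPKM with TGFB1 (log2 change 1.51, SE 0.048, limma adjusted p 1.19e-09), and all TGFB1 libraries were above all vehicle libraries. Apob was 113, 103 and 111 FPKM with vehicle and 353, 346 and 379 FPKM with TGFB1 (log2 change 1.71, SE 0.048, limma adjusted p 4.89e-10). Krt20 was 143, 146 and 155 FPKM with vehicle and 509, 527 and 574 FPKM with TGFB1 (log2 change 1.85, SE 0.05, limma adjusted p 4.44e-10), and Lct 9.62, 8.57 and 10.1 FPKM with vehicle and 33.8, 38.3 and 37.0 FPKM with TGFB1 (log2 change 1.84, SE 0.066, limma adjusted p 2.31e-09). Of 16 tested brush border enzymes 12 fell and 3 rose, with a median of −0.44, and of 19 tested nutrient transporters 8 fell and 7 rose, with a median of −0.03. Sis was 530.1, 518 and 538 FPKM with vehicle and 395, 368 and 365 FPKM with TGFB1 (log2 change −0.49, SE 0.04, limma adjusted p 1.02e-06), Slc5a1 362, 351 and 366 FPKM with vehicle and 221, 211 and 209.5 FPKM with TGFB1 (log2 change −0.75, SE 0.037, limma adjusted p 2.05e-08) and Anpep 254, 257 and 266 FPKM with vehicle and 94.4, 107 and 94.3 FPKM with TGFB1 (log2 change −1.39, SE 0.05, limma adjusted p 2.49e-09), with no overlap between the groups.

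Detoxification genes fell in 11 of 18 tested and rose in 5, with a median of −0.27. Gstm3 was 527, 537 and 547 FPKM with vehicle and 97.4, 92.4 and 90.1 FPKM with TGFB1 (log2 change −2.51, SE 0.039, limma adjusted p 1.55e-11) and Ces1d 13.6, 14.6 and 13.0 FPKM with vehicle and 2.11, 2.60 and 1.80 FPKM with TGFB1 (log2 change −2.22, SE 0.091, limma adjusted p 6.32e-09). Gstm1, Ces1f, Akr1c14 and Ephx1 also fell, by 2.08, 2.10, 1.97 and 1.55 on the log2 scale, while Gpx1, a glutathione peroxidase, rose by 0.96. Of the 6 tested genes of retinoid handling 5 fell and 1 rose, Rbp2, with a log2 change of 0.61 (limma adjusted p 7.88e-07), a call that was lost with quantile normalisation (0.09, limma adjusted p 0.140). Of the villus tip list all 12 tested genes rose, with a median of 1.63. In the single Fabp1-high cells 1 of 7 tested genes of this list was at least 2-fold higher at 24 h (median log2 change 0.39). In the other cells 4 of 8 were (median 0.94). Other lists moved in the bulk libraries too. All 9 tested genes of dissociation stress rose (median 1.56), as did 21 of 23 regenerative and 8 of 10 Paneth genes, while all 13 mitosis and all 12 S phase genes fell. Their part in the changes of enterocyte genes was not tested.

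Reg genes and the genes named from the single cells were tested as well. Reg3b rose, from 299, 320.3 and 431 FPKM with vehicle to 743, 737 and 793 FPKM with TGFB1 (log2 change 1.13, SE 0.14, limma adjusted p 0.00059), while Reg1 did not pass the test (log2 change 0.06, limma adjusted p 0.269), and fell with quantile normalisation (−0.23, limma adjusted p 0.000454). Fcgrt was 17.5, 18.7 and 17.7 FPKM with vehicle and 221, 233 and 254 FPKM with TGFB1 (log2 change 3.64, SE 0.053, limma adjusted p 1.24e-11), with no overlap. Pmepa1, Skil and Smad7 rose by 4.46, 2.46 and 2.11 on the log2 scale. Of the 52 genes at least 2-fold higher in Fabp1-high cells at 24 h, 44 were tested in bulk and 37 rose and 5 fell, with a median of 1.52. Of the 33 lower, 23 were tested and 21 fell and none rose, with a median of −1.07. These single-cell and bulk libraries are separate, and the background shares are those of all tested genes (35.8% higher and 39.7% lower).

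**Figure D5:**
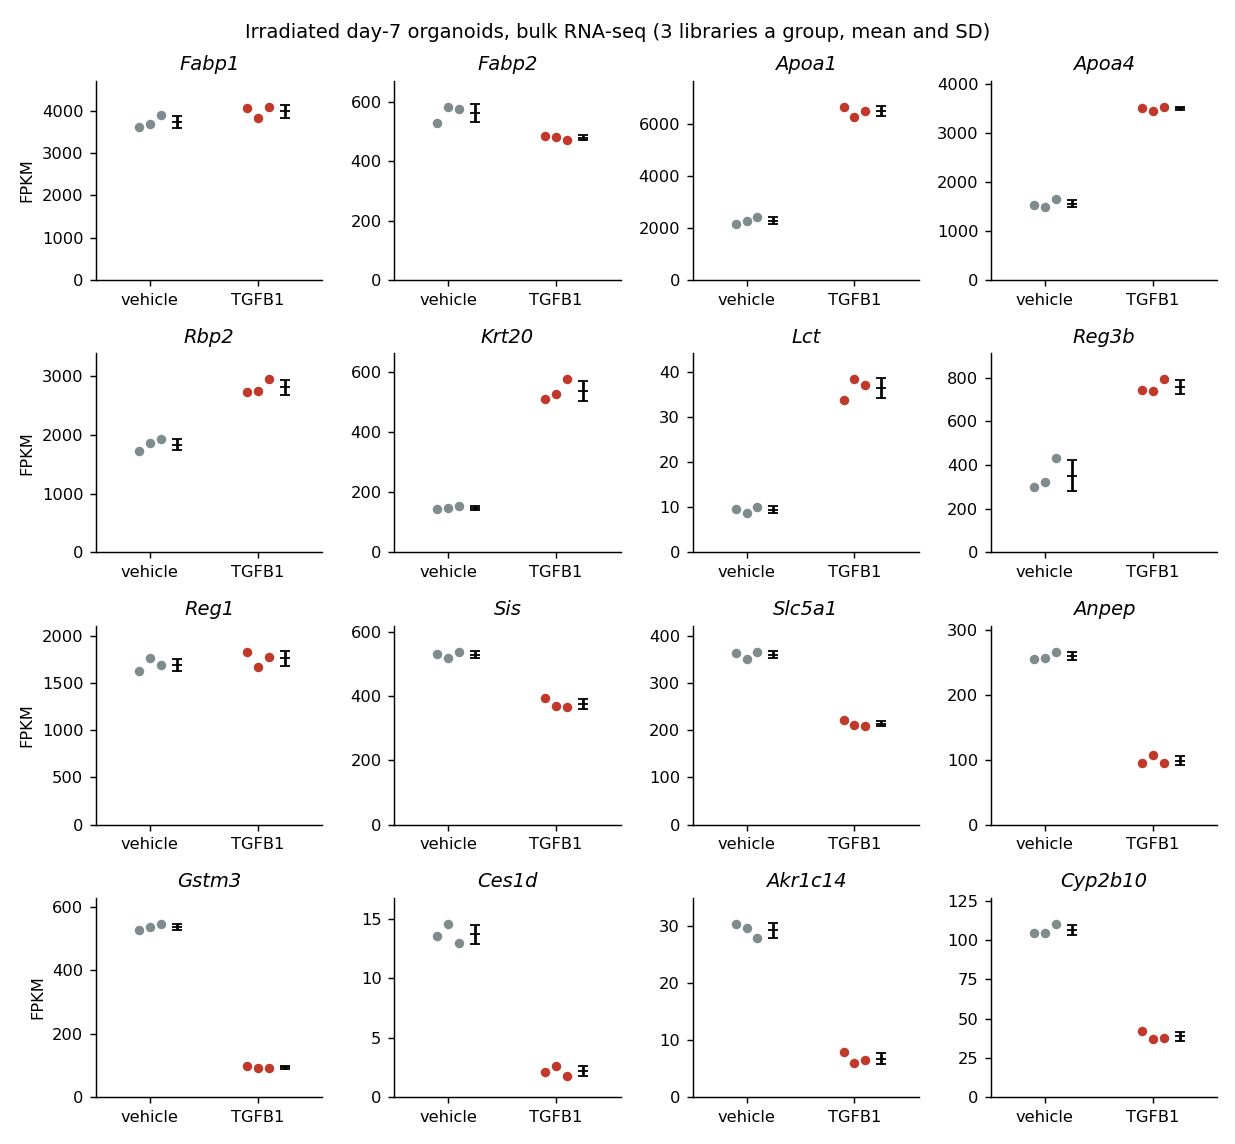
FPKM of 16 genes in the 3 vehicle and 3 TGFB1 libraries of irradiated day 7 organoids (y axis, per gene), points for libraries and bars for mean and SD. Fabp1 overlaps between the groups, Apoa1, Krt20, Lct and Reg3b are higher with TGFB1, and Sis, Slc5a1, Anpep, Gstm3 and Ces1d lower.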

How the data were processed

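Single-cell libraries were made with the PIPseq T2 kit v2.1, per the labels. The authors deposited expected counts of UMIs over 54307 gene rows, which are not whole where a UMI was shared between genes. The bulk tables deposited by the authors hold FPKM of 23951 genes; their read depth is unknown. The submitters' processing notes name STAR 2.7.10a, STARsolo, Salmon 1.4, TopHat2 2.1.0 and Cuffnorm 2.2.1 and the builds mm9, mm39 and GRCm39, with roles not given in the sources used here.

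Cells of at least 500 UMIs and at most 20% mitochondrial UMIs were kept. UMIs were summed per class and library without Fabp1 and given as CPM with exact Poisson intervals (95%), and shares of cells with exact Clopper-Pearson intervals; both cover counting error only. Genes of at least 50 CPM were compared, and over time a gene had to reach this at 0 h or at the later time. A sum under 3 UMIs was set to 3 for a fold. Mitochondrial, Gm and Rik genes were left out. Named genes are those with the largest folds between classes (10 each way, by the smallest fold over the libraries), from 0 h to 24 h (10 each way) or to 6 and 15 h (5 each way), those differing most between classes in that change (5 each way), and list genes as examples. FPKM were tested with limma 3.58.1 (limma-trend, robust, R 4.3.3) on log2(FPKM + 1), over genes of mean 1 FPKM or more. Doublets were called with scanpy 1.11.5. The members and lists were chosen with earlier results of these data known. Alternatives were another threshold, scaling, filter, pseudocount or thinning, a replicate block and each bulk library left out in turn. The other bulk groups, the ATAC libraries and the Ki67-RFP libraries were not used here.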

Additional observations from a re-analysis of the deposited data

Results flagged for a closer look

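Dmbt1 differed in direction between the 2 classes of cells at 24 h. From 0 to 24 h its log2 CPM changed by 1.02 in the Fabp1-high cells (90.4 to 184 CPM, 95% Poisson intervals 83.1 to 98.1 and 171 to 196) and by −0.42 in the other cells (553 to 414 CPM). At 6 and 15 h it was above 0 h in both classes (258 and 231 CPM in the members, 841 and 684 in the others). With 1 library per time the difference was not tested. In the bulk libraries of irradiated day 7 organoids Dmbt1 fell (584, 568 and 566 FPKM with vehicle, 241, 244 and 233 with TGFB1, log2 change −1.25, limma adjusted p 4.99e-10).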

How the results depend on the processing

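The share of Fabp1-high cells at 0, 6, 15 and 24 h was 34.0, 35.3, 30.5 and 16.3% with a threshold of 100, and 6.45, 9.39, 7.09 and 1.17% with 300. In cells of 4000 to 20000 UMIs only, an alternative chosen after seeing the data, it was 27.2, 30.1, 26.4 and 7.80%. It was 29.0% at 6 h with mitochondrial UMIs out of the denominator and 20.4% at 15 h with at most 10% mitochondrial UMIs. The 24 h share was the lowest of the 4 in each of these threshold and depth settings. It was not the lowest among cells of at least 10000 UMIs, where the shares were 23.0, 16.2, 27.9 and 19.1%. Genes higher in the members were 131 with a threshold of 300 and 479 with median-ratio scaling; genes lower were 154 with that scaling and 1091 with a minimum of 10 CPM. Without the 24 h library, also chosen after seeing the data, 327 were higher and 390 lower. With 10 CPM, 90 were higher and 24 lower at 6 h, 116 and 52 at 15 h, and 138 and 91 at 24 h; with a threshold of 300, 9 were lower at 6 h and 52 at 24 h. Gvin1 turned to −0.10, −0.55, −0.68 and −0.28 and Gvin2 to −0.10, −0.55, −0.66 and −0.27 with thresholds of 100 and 300, cells of 4000 to 20000 UMIs and a mean over cells, and Tuba1a to −0.50 with those cells; over 50% of the UMIs of these genes were split between genes, and the cause was not tested. With quantile normalisation the bulk changes of Fabp1 (−0.53), Apoc3 (−0.044), Mttp (−0.035) and Reg1 (−0.23) turned. Fabp1 was called with a replicate block (limma adjusted p 0.0438), with median-ratio scaling (0.0190) and without vehicle replicate 3 (0.0341) or TGFB1 replicate 2 (0.0308), and Leap2 without vehicle replicate 1 (−0.44, 0.0492). Leaving out each bulk library gave 3836 to 3908 genes higher and 4192 to 4387 lower. With the replicate block 3985 rose and 4432 fell; same-numbered libraries correlated at 0.0745, 0.213 and 0.0237, so the numbers were not taken to pair them. The 24 h values rest on 236 member cells, the fewest of the 4 libraries.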
